A study of Mus musculus with 4 samples.

Results

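Lhx8 and Zic1 neurons of the medial ganglionic eminence (MGE), a ventral zone of the embryonic telencephalon, were described at e14.5 in mice of a mixed C57/BL6 and ICR strain. A barcode was taken as a member when it held at least 3000 UMIs (unique molecular identifiers, each 1 counted RNA molecule), at most 10% of them mitochondrial, at least 2 UMIs of Lhx8, at least 1 of Zic1, at most 1 of the Notch targets Hes1 and Hes5 together and at least 2 of the neuronal genes Stmn2, Gap43 and Mapt together. The rule found 1700 members among 12461 barcodes that passed the same neuron gate (13.6%), of 19032 barcodes that passed the UMI and mitochondrial limits (8.93%). Null replicates 1 and 2 held 531 and 351 members and WT replicates 1 and 2 held 356 and 462, and lists of 4 values follow this order.

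The study set St18(-/-) embryos beside wildtype (WT) embryos with 2 single-cell libraries per genotype. St18 is a zinc finger transcription factor of the Myt family. Its null allele lacks internal exons in every cell, since a germline Cre had acted on a floxed allele. MGE tissue of several embryos was pooled by genotype, and neither how many embryos a pool held nor their sex was stated. The study calls the libraries of a genotype biological replicates, without saying which embryos entered which library.

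In the MGE the homeobox factor Nkx2-1 switches on the LIM homeobox factors Lhx6 and Lhx8. Cells that keep Lhx6 become GABAergic interneurons and pallidal neurons, whereas Lhx8, together with Isl1, is known for cholinergic neurons of the basal forebrain, which make acetylcholine with choline acetyltransferase (Chat) and load it into vesicles with the transporter Slc18a3. Zic1, a zinc finger factor, is known from the septum and other ventral and medial parts of the telencephalon.

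The sequences upstream of 4 genes are shown, those of Lhx8 and Zic1 because both define the class and those of Slc10a4 and Slc18a3 because both were high in it. Lhx8 lies at chr3:154306294-154330659, Zic1 at chr9:91358058-91365810, Slc10a4 at chr5:73006883-73012955 and Slc18a3 at chr14:32462438-32464850 (GRCm38, GENCODE M21). AI606473, a transcript without a reading frame, starts 161 bases from the start of Lhx8 on the other strand of chromosome 3, and both genes point away from the stretch between them. Zic1 and Zic4 overlap on opposite strands of chromosome 9, and Slc18a3 lies inside Chat on the same strand of chromosome 14. Each run is the longest stretch outside annotated exons in the 250 bases before the start of the gene (RefSeq, GRCm38.p6), written 5′ to 3′ on the strand of the gene. Capitals mark matches on either strand to AAGTT, a core bound by Myt family proteins, or to CAAGTG, a core bound by Nkx2 factors. TAATTA, a core bound by LIM homeodomain proteins, was searched as well, and no base lay in more than 1 match.
Lhx8, chr3:154330660-154330810, minus strand: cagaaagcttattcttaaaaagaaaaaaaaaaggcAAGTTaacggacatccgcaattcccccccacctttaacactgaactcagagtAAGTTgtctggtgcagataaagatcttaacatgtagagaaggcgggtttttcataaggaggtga
Zic1, chr9:91365811-91366018, minus strand: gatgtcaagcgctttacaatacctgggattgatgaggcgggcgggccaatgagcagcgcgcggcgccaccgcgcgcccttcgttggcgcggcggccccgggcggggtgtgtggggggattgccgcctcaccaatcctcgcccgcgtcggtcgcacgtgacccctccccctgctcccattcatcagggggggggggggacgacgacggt
Slc10a4, chr5:73006654-73006882, plus strand: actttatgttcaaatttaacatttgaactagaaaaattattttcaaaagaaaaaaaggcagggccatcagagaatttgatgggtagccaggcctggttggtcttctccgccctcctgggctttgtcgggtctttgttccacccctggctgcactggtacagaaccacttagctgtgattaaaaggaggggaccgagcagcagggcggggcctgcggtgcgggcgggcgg
Slc18a3, chr14:32464851-32465041, minus strand: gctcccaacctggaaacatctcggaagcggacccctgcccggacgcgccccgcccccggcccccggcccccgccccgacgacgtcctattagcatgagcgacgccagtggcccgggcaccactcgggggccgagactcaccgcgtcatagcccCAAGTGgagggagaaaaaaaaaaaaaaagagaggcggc
The Lhx8 stretch held AAGTT at 2 places, and 25.3% of 32851 promoters hold it in the same positions. The Slc18a3 stretch held CAAGTG at 1 place, against 8.63% of promoters in the same positions. TAATTA was in 0 of these 4 stretches and occurs in 3.25% to 4.66% of promoters in the matching positions. A match is a description of letters and not a site.

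The libraries held 70991150 to 92984713 UMIs over all barcodes, and the members a median of 7055, 10123, 6660 and 6444 UMIs per cell. Any 2 libraries shared 4 to 11 passing barcodes and 0 members. St18, the targeted gene, stood at 20.4, 59.9, 40.9 and 42.9 CPM in members (counts scaled to the same total in each class and library), so that the library labelled null replicate 2 was above both WT libraries and null replicate 1 below them. A count per gene does not show whether the deleted exons were in the RNA, and the level is therefore no check of the genotype by itself. Xist, the RNA of the inactive X chromosome, stood at 608, 1683, 0 and 0 CPM. At least 3 Xist UMIs were held by 36.3% of the members of null replicate 1, by 78.9% of those of null replicate 2 and by 0% in WT, so that the genotypes differed in Xist as well, and null and WT were also compared in members without Xist (175 genes called, against 229 in all members). Within null replicate 2 the St18 level was 69.4 CPM in members with 3 or more Xist UMIs (95% exact Poisson interval 60.7 to 79.2, counting error only) and 25.2 CPM in members with none (15.4 to 39). In null replicate 1 the order was the other way, at 16 CPM (10.6 to 23.1) and 23.5 CPM (18 to 30.2), with intervals that overlapped.

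Members were chosen by their counts of Lhx8 and Zic1, which are given without a test. Lhx8 had a median of 5 UMIs per member (highest 35) and Zic1 a median of 2 (highest 39). Lhx8 was exactly 2 in 268 members, and Zic1 was a single UMI in 633 members (37.2%). One Zic1 UMI or more was also present in 13.8%, 16.9%, 11.3% and 13.2% of the progenitors, barcodes with at least 2 UMIs of Hes1 and Hes5 and at most 1 of the neuronal genes, which had a median of 9723, 12985, 9202 and 8803 UMIs. In background droplets (under 100 UMIs) Lhx8 made 123, 112, 132 and 130.1 CPM and Zic1 41.4, 43.7, 64.9 and 71.4 CPM, so that the single-UMI members are the least certain. Just inside the Zic1 limit, at 1 UMI, Zic4 stood at 5.6, 8.38, 6.8 and 7.59 CPM, and just outside it, at 0 UMIs, at 1.42, 1.53, 2.54 and 4.13 CPM. Just inside the Lhx8 limit, at 2 UMIs, Lypd6 stood at 21.8, 23.3, 20.3 and 26.6 CPM, and just outside it, at 1 UMI, at 20.1, 13.8, 16.1 and 10.2 CPM.

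The label was held against its defining genes. Nkx2-1 or Lhx6 had a UMI in 97.5% of the members, and both had one in 76.9%. Gad1 or Gad2, which make GABA, had a UMI in 89.9%, and a vesicular glutamate transporter in 0.706%. In progenitors Nkx2-1 had a UMI in 83.6%, 79.6%, 77.6% and 82.6% of the cells, Lhx6 in 20%, 26.5%, 15% and 16.4% and Gad2 in 14.8%, 19.8%, 17.7% and 14.6%, against 86.4%, 89.5%, 83.7% and 83.8%, 89.8%, 96%, 88.8% and 81.8% and 83.8%, 92%, 84.3% and 79.2% of the members. In background droplets Nkx2-1 made 259, 245, 219 and 201 CPM, Lhx6 190.3, 218, 155 and 169 CPM and Gad2 291, 255, 269 and 251 CPM, below their levels in members of 540.1, 542, 489.9 and 487 CPM, 497, 659, 406 and 386 CPM and 454, 512, 481 and 438 CPM, so that a UMI of Nkx2-1 alone does not set members apart. Of 9 preoptic and hypothalamic genes, Dbx1, Hmx2, Hmx3, Nkx2-2 and Six6 were at 0 in all members, and the 9 genes summed to 2.95, 3.91, 0.757 and 3.63 CPM. Of the given markers Shh had a UMI in 392 members, Lypd6 in 334 and Kitl in 577, while 35 members held all of these and 716 (42.1%) none. In progenitors Shh had a UMI in 0.976%, 0.875%, 1.36% and 0.697% of the cells, against 23.4%, 29.1%, 22.5% and 18.6% of the members, or 14.51%, 13.4%, 15.8% and 9.5% of members thinned to 3000 UMIs. Mki67 or Top2a, genes of dividing cells, had a UMI in 54.8%, 59.8%, 40.4% and 42.9% of the members, and in 28.5%, 31.7%, 21.7% and 23% after thinning. Both were also plentiful in background droplets, Top2a at 495, 462, 470.3 and 397 CPM against 659, 730.4, 518 and 517 CPM in members and Mki67 at 314, 279, 209 and 173 against 399, 503, 202 and 222 CPM, so that a UMI does not show a dividing cell.

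The share of members did not separate the genotypes. Members made 12.8%, 14%, 12.1% and 16% of the gated neurons, that is 13.4% ± 0.859 (SD, n = 2) for null and 14.1% ± 2.75 (SD, n = 2) for WT, a difference of -0.662 percentage points (two-sided exact permutation test over libraries, p = 1; with 2 against 2 libraries the smallest p is 0.3333). The exact binomial 95% intervals ran from 11.8% to 13.9%, 12.7% to 15.5%, 11% to 13.4% and 14.7% to 17.4%, counting error only. After each cell was thinned to 3000 UMIs the shares were 5.91%, 4.83%, 5.41% and 8.56% (exact permutation p = 0.667). WT replicate 2 was highest in both, and without it the null mean was above the remaining WT library by 1.28 percentage points.

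**Figure D1:**
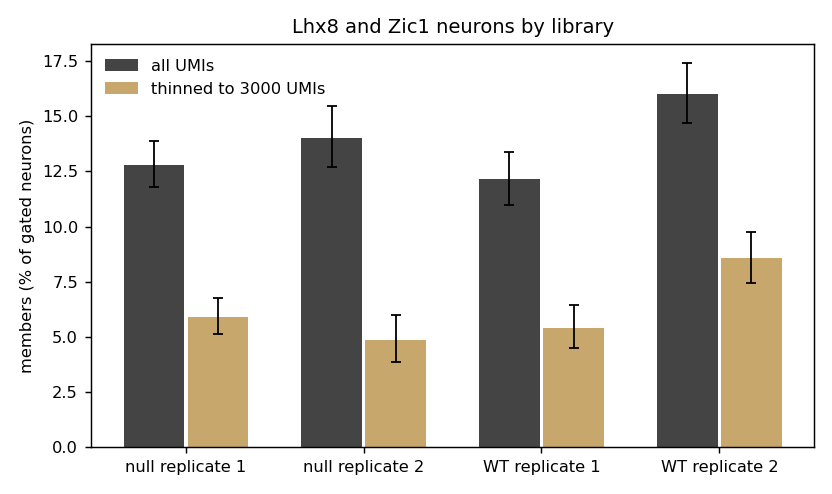
Members as a percentage of the gated neurons in each library, with all UMIs (dark) and after thinning each cell to 3000 UMIs (light); bars start at 0 and error bars are exact binomial 95% intervals. WT replicate 2 is highest under both, and the null bars at all UMIs (12.8% and 14%) lie between the WT bars (12.1% and 16%).

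To find what else the members carried, they were compared with 4 other classes of gated neurons, each summed per library: Lhx8-only neurons (at least 2 Lhx8 UMIs and no Zic1, 2070 cells), Zic1-only neurons (at least 2 Zic1 UMIs and no Lhx8, 170 cells), Lhx6 neurons (at least 2 Lhx6 UMIs and neither Lhx8 nor Zic1, 3121 cells) and the rest (5400 cells). The sums were tested in edgeR (quasi-likelihood) in a model that took each library as a block, and p-values were adjusted by the Benjamini-Hochberg method over all genes tested. The 8 genes that define the gate and the classes were left out of these tests and of the Lhx6 split below. They stayed in the tests of null against WT and of the interaction. The comparisons share the members, and members were deeper than the rest (6275, 8583, 5661 and 5628 UMIs per cell at the median). The rest is what was left once the other classes, Lhx8-only and Lhx6 neurons among them, were taken out. This choice removes MGE neurons from the rest, and its part in the differences of MGE, striatal and caudal genes was not tested.

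Against the rest, members were high in other Zic genes, Shh, Lypd6, Lypd6b, Gbx1, Gbx2 and the vesicle genes Slc18a3 and Slc10a4, and low in striatal and caudal genes. Of 12120 genes 8.61% were higher and 10.1% lower at an adjusted p under 0.05. All 4 Zic genes of the list were higher (median log2 difference 3.49, against -0.00150 over all genes). Zic4, the neighbour of Zic1, stood at 47.2, 29.1, 43.9 and 72.6 CPM in members and at 2.27, 1.01, 1.23 and 4.66 CPM in the rest (log2 difference 4.39, SE 0.168, adjusted p = 1.13e-17). AI606473, the neighbour of Lhx8, stood at 56.3, 69.9, 75.7 and 77.7 CPM against 2.43, 2.46, 3.68 and 5.79 CPM (log2 difference 4.30, SE 0.147, adjusted p = 1.62e-18). The groups did not overlap for either gene. Both lie beside a gene that chose the members, and the sources used here do not state whether reads were counted by strand where Zic1 and Zic4 overlap.

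Of 5 Kit and Lypd genes 4 were higher and 1 was lower. Lypd6 and Lypd6b encode Ly6-type proteins known to act on nicotinic acetylcholine receptors, and they lie 117579 bases apart on chromosome 2. Lypd6 stood at 34.9, 40.6, 38.2 and 43.2 CPM in members against 3.21, 3.47, 4.13 and 4.16 CPM in the rest (log2 difference 3.38, SE 0.157, adjusted p = 9.71e-16), and Lypd6b at 18.6, 18.3, 23.1 and 25.7 against 1.8, 1.57, 1.9 and 2.64 CPM (log2 difference 3.42, SE 0.221, adjusted p = 8.18e-13). Kitl, the ligand of the receptor Kit, stood at 92.1, 131, 79.4 and 82.3 against 33.8, 30.8, 17.7 and 27.2 CPM (log2 difference 1.78, SE 0.112, adjusted p = 4.53e-13). None of these overlapped between members and rest. Lypd1 was the lower one, at 23.8, 20.8, 2.65 and 12.4 against 44.2, 48.5, 27.3 and 26.4 CPM (log2 difference -1.28, SE 0.161). Of 9 nicotinic receptor genes 2 passed the filter on low counts, of which Chrna4 was lower (log2 difference -1.81), and Chrna2, Chrna6, Chrnb3 and Chrnb4 were at 0 in all members.

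Of 17 hedgehog genes 11 were tested, of which 2 were lower. Shh, the secreted ligand, stood at 50.8, 72.1, 59.8 and 56.2 CPM in members against 3.99, 4.37, 8.37 and 8.94 CPM in the rest (log2 difference 3.26, SE 0.184, adjusted p = 5.66e-14). Ptch1, its receptor and target, was at 39, 49.1, 34.8 and 29.9 CPM in members and 51.1, 53.2, 33.2 and 33.8 CPM in the rest (log2 difference -0.19, adjusted p = 0.135), and at 119, 132, 86.7 and 99.7 CPM in progenitors. Gli1, another target of the pathway, was at 0.454, 0.489, 0.378 and 0 CPM in members and at 4.01, 4.55, 3.9 and 1.52 CPM in progenitors. The ligand was thus high in the members, while both targets were above the members in the progenitors of each library, a contrast that was not tested. The transcription factor Gli3 was lower (-0.58, SE 0.15), as was Scube1 (-0.67, SE 0.181), which helps to release the ligand.

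Of 12 tested MGE genes 6 were higher and 2 lower. Nkx2-1 stood at 540.1, 542, 489.9 and 487 CPM in members against 261, 253, 252 and 294 CPM in the rest (log2 difference 0.94, SE 0.0782, adjusted p = 2.21e-10). The homeobox gene Gbx1 stood at 42, 41.3, 61.7 and 49.6 against 5.64, 3.92, 5.58 and 8.56 CPM (log2 difference 3.01, SE 0.156, adjusted p = 8.14e-15). Its relative Gbx2 stood at 10.2, 15.9, 45 and 37.2 against 3.13, 2.8, 2.57 and 5.29 CPM (log2 difference 2.81, SE 0.219, adjusted p = 5.29e-11), with the null libraries the lowest among members. Sox6, a factor of MGE neurons, was higher by 0.75 on the log2 scale. Of 6 tested pallidal genes 3 were higher, Etv1 with a log2 difference of 1.05, and Zfhx4 was lower (-1.24).

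Of 11 cholinergic genes only 5 passed the filter, of which Gbx1, Gbx2 and Zic4 were higher and Isl1 lower. Slc18a3, the other, stood at 6.13, 3.91, 8.7 and 10.3 CPM in members against 0.235, 0, 0.335 and 0.504 CPM in the rest. It passed the filter with the level it has in members, so that its levels are given with no test. Slc10a4, a vesicle protein known from cholinergic neurons, stood at 53.8, 44.9, 60.9 and 84.4 against 3.76, 3.14, 4.46 and 5.67 CPM (log2 difference 3.81, SE 0.144, adjusted p = 1.13e-17). Isl1 went the other way, at 39.3, 27.4, 60.1 and 91.6 against 185, 195, 155 and 102 CPM (log2 difference -1.61, SE 0.209), and in thinned cells the difference was -0.33 and was not called. It is also known as a striatal gene. Chat was sparse, at 1.82, 3.42, 1.51 and 4.23 CPM, and was not tested here. Of 5 GABA genes Abat, which degrades GABA, was higher (log2 difference 1.03), and so was Gad1 (0.18, lost without null replicate 1, null replicate 2 or WT replicate 1).

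Genes of neighbouring lineages were lower than in the rest, a class from which Lhx6 and Lhx8-only neurons had been taken out. Of 9 tested striatal genes 8 were lower and Bcl11b was higher (median log2 difference -1.69). Ebf1, a striatal transcription factor, stood at 36.8, 23.5, 49.6 and 32.7 CPM in members against 524, 695, 491 and 322 CPM in the rest (log2 difference -3.87, SE 0.181, adjusted p = 1.02e-15), and Zfp503 at 7.72, 3.42, 3.78 and 5.44 against 91.3, 149, 87.7 and 48.9 CPM (log2 difference -4.19, SE 0.211, adjusted p = 4.51e-15). Of 6 genes of the caudal ganglionic eminence 4 were lower, with the nuclear receptor Nr2f1 at 32.9, 33.7, 21.2 and 24.5 against 252, 290.1, 191 and 191 CPM (log2 difference -3.05, SE 0.117, adjusted p = 1.13e-17). Of 13 genes of cortical interneuron precursors 10 were lower. Among them Npy, neuropeptide Y, stood at 190.2, 156, 99.1 and 90.7 against 369, 279, 451 and 329 CPM (log2 difference -1.41, SE 0.142, adjusted p = 9.72e-09). For each of these named genes members lay below the rest in all libraries. Of 10 LIM and partner genes 6 were lower and Lmo3 was higher.

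Guidance genes went both ways, with 11 of 30 tested higher and 8 lower (median log2 difference -0.03). The semaphorin Sema3c stood at 22, 24.9, 17.8 and 19.4 CPM in members against 5.17, 6.94, 6.92 and 7.93 CPM in the rest (log2 difference 1.67, SE 0.169), and Sema3e was higher too (1.91). The ephrin receptors Epha3 (-1.46) and Epha5 (-1.46) were lower. Of 14 tested cadherins 4 were higher, led by Cdh8 (1.47) and Pcdh8 (1.25), and 3 lower. Of 12 maturity genes 3 were higher and 5 lower, among the latter the neurofilament Nefl (-1.98). Of 8 tested neuropeptide genes Nts and Cbln1 were higher and 4 were lower. Of 13 progenitor genes 0 were higher and 10 lower, with Top2a and Mki67 among the 3 that did not pass. The naming rule further picked Pde1a, a calcium-dependent phosphodiesterase (3.78), Kctd8 (2.70), Arhgap20 (2.05) and Adarb2 (1.97) among the higher genes, and Hs6st2 (-2.51), Nr2f2 (-2.48) and Meis2 (-2.80) among the lower ones.

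The rest did not hold neurons alone. All 8 microglial genes and all 5 tested globin genes were lower in members. The microglial genes summed to 2.72, 3.42, 1.13 and 2.72 CPM in members against 56.8, 41.8, 103 and 233 CPM in the rest, with Cx3cr1 at 0 in all members. The 7 erythroid genes summed to 72.2, 69.1, 90.8 and 1053 CPM against 2000.3, 1792, 7953 and 12268 CPM, so that the members of WT replicate 2 stood apart. Of pallial, oligodendrocyte precursor and endothelial genes 3 of 6, 2 of 3 and 0 of 3 tested were lower and 0 higher. The part of these cells in the other differences was not tested.

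Against Lhx8-only neurons the members were higher in Zic and cholinergic genes and lower in progenitor genes. Of 12120 genes 5.78% were higher and 5.02% lower. All 4 Zic genes were higher (median log2 difference 4.49), and Zic4 stood at 1.42, 1.53, 2.54 and 4.13 CPM in Lhx8-only neurons (log2 difference 4.37, SE 0.205, adjusted p = 9.15e-15). Slc10a4 stood at 7.09, 6.12, 5.08 and 3.58 CPM there (log2 difference 3.37, SE 0.165, adjusted p = 1.33e-14). All 5 tested cholinergic genes were higher in members, Isl1 among them (log2 difference 1.29, SE 0.311), but Slc18a3 passed the filter with the level it has in members. Shh stood at 19.5, 27.6, 40.4 and 21.2 CPM in Lhx8-only neurons (log2 difference 1.17, SE 0.169) and Lypd6 at 9.75, 10.7, 19.4 and 20.9 CPM (1.42, SE 0.146). Kitl stood at 84, 95.7, 66.1 and 65.7 CPM and did not pass (log2 difference 0.28, adjusted p = 0.0956). For Shh and Lypd6 the Lhx8-only neurons lay between the rest and the members in all libraries, whereas the Zic4 values of Lhx8-only neurons and rest overlapped.

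Also higher than in Lhx8-only neurons was Crabp1, which binds retinoic acid, at 17.5, 20.5, 51.4 and 32.7 CPM against 2.66, 3.06, 8.58 and 9.63 CPM (log2 difference 2.39, SE 0.411, adjusted p = 1.67e-04), with Rbms1 (log2 difference 2.53), Arhgap20 (2.05) and Itm2a (2.05). Lower were Npy (-1.40), Lgals1 (-1.37), the growth arrest gene Gadd45g (-1.22), Lmo1 (-1.07), the cell cycle factor E2f1 (-1.04) and Gucy1a1 (-1.03). Of 13 progenitor genes 10 were lower and 0 higher (median log2 difference -0.60), and of 12 maturity genes Map2, Syt1 and Cntnap2 were higher and 0 lower. Of 6 tested pallial genes Neurod1 and Neurod6, factors of glutamatergic neurons, were higher and 0 lower (adjusted p = 0.0137 and 2.75e-05), both from few UMIs, and DESeq2 called 0 of the 6. Neurod6 stood at 0.227, 11.5, 0 and 0 CPM in members and 0, 0.255, 0 and 0 CPM in Lhx8-only neurons, with null replicate 2 apart, and Neurod1 at 2.72, 3.42, 0 and 0.302 and 0, 0.51, 0 and 0 CPM.

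Against Zic1-only neurons 5.18% of the genes were higher and 5.1% lower. Of 12 tested MGE genes 10 were higher in members. Shh stood at 0, 1.89, 10.7 and 5.96 CPM in Zic1-only neurons (log2 difference 4.13, SE 0.593, adjusted p = 1.25e-05), and Pde1a (log2 difference 4.13), AI606473 (3.86), Lypd6 (2.86), Lypd6b (2.61) and the potassium channel gene Kcnc2 (2.22) were higher as well. Tac1, the precursor of substance P, stood at 42.9, 690.2, 277 and 244 CPM in Zic1-only neurons against 7.26, 1.22, 2.65 and 5.14 CPM in members (log2 difference -6.22, SE 0.509, adjusted p = 6.09e-10). Lower too were the hypothalamic factor Otp (-6.09, with 0 CPM in Zic1-only neurons of WT replicate 1), Pax6 (-5.56), the galanin gene Gal (-5.27), G630016G05Rik (-4.78) and Ebf1 (-4.19). Zic4 stood at 23.8, 34, 10.7 and 65.5 CPM in Zic1-only neurons, overlapping the members. This class held 26 to 50 cells per library, and after thinning Shh, Lypd6, Lypd6b and Kcnc2 did not pass.

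Against Lhx6 neurons 12% of the genes were higher and 10.3% lower. Higher were Zic4 (log2 difference 5.54), AI606473 (5.11), Slc10a4 (4.70), Pde1a (4.49), Lypd6 (4.30) and Lypd6b (4.02). Of 13 genes of cortical interneuron precursors 11 were lower and 0 higher, and Npy stood at 611, 617, 766 and 651 CPM in Lhx6 neurons (log2 difference -2.32, SE 0.144). Nr2f1 (-2.85), its antisense transcript A830082K12Rik (-3.26), which overlaps it, Nr2f2 (-2.54) and Efcab6 (-2.95) were lower too. Of 14 tested cadherins 8 were higher and 1 lower. The globin gene Hbb-y was lower (-4.83) through null replicate 2, with 9.01, 1071, 9.67 and 11.7 CPM in Lhx6 neurons, and without that library its difference was -0.56. It lost its call without null replicate 1 as well.

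**Figure D2:**
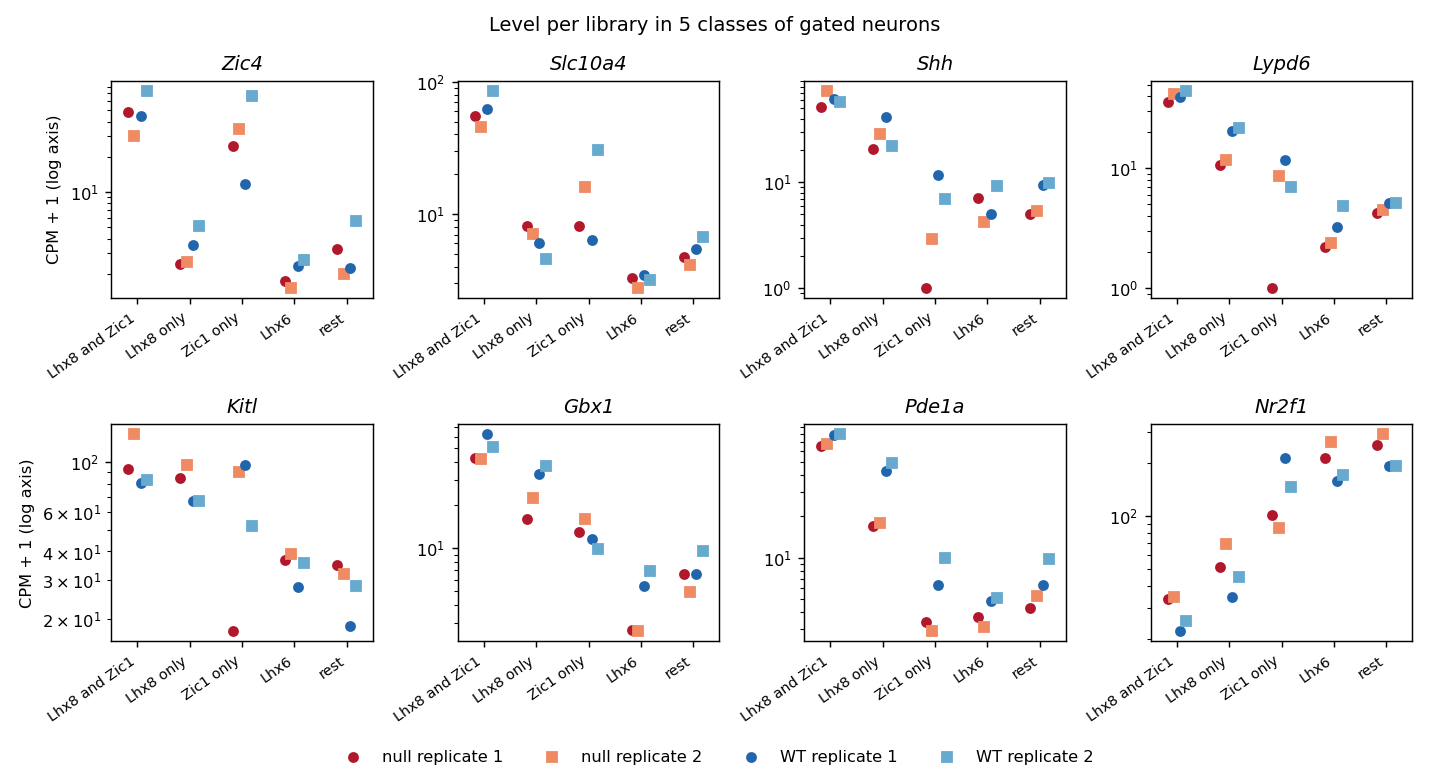
Level of 8 genes in 5 classes of gated neurons, in CPM plus 1 on a log axis, with 1 point per library. Zic4 and Slc10a4 are high in members (29.1 to 72.6 and 44.9 to 84.4 CPM), Shh, Lypd6, Gbx1 and Pde1a step down from members to Lhx8-only neurons, and Nr2f1 runs the other way.

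The members differed among themselves by how much Zic1 they held, which is description only because Zic1 chose them. Members with 1, with 2 to 4 and with 5 or more Zic1 UMIs numbered 633, 621 and 446. Zic4 stood at 5.6, 8.38, 6.8 and 7.59 CPM at 1 UMI and at 147, 59.8, 155 and 217 CPM at 5 or more, and Slc10a4 at 13.7, 15.9, 11.7 and 15.9 and 151, 94.2, 209 and 248 CPM. Slc18a3 stood at 0, 0, 0 and 0.759 CPM at 1 UMI and at 20.1, 10.2, 37.4 and 34.5 CPM at 5 or more. All these genes were highest in the members rich in Zic1 in each library. Isl1 stood at 24.9, 35.2, 7.77 and 17.5 CPM in the lowest band and at 62.1, 36.9, 209 and 251 CPM in the highest, where both WT libraries were above both null libraries. Gbx2 had the same order in the highest band, at 21, 22.3, 112 and 79.6 CPM. Npy went from 296, 235, 141 and 121 CPM to 76.1, 99.3, 95.3 and 39.2 CPM, lower in each library. Shh had no such order, at 35.5, 51.9, 64.1 and 48.6 CPM, 49.5, 86.6, 61.4 and 71.5 CPM and 74.4, 75.1, 49.4 and 47.5 CPM in the 3 bands. Deeper cells reach a higher Zic1 count more easily, and depth was not held fixed between the bands.

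**Figure D3:**
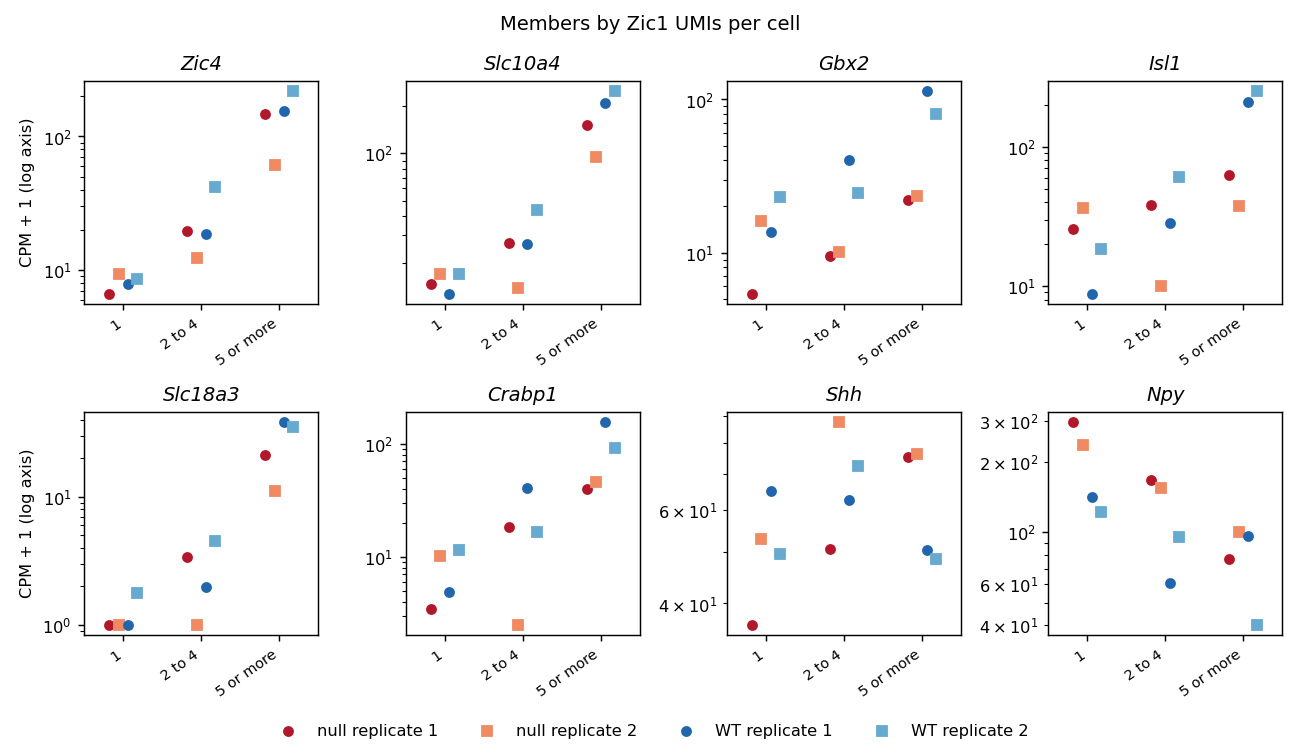
Level of 8 genes in members with 1, 2 to 4 and 5 or more Zic1 UMIs per cell, in CPM plus 1 on a log axis, with 1 point per library. Zic4, Slc10a4 and Slc18a3 are highest in the top band in all 4 libraries, Npy is lower there than in the lowest band, Shh has no such order, and Isl1 and Gbx2 lie higher in WT (blue) than in null (red) in the top band.

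The second axis within the members was Lhx6. Of the members 1508 held an Lhx6 UMI and 192 (11.3%) held none, with 54, 14, 40 and 84 such cells per library. Members with and without Lhx6 were summed per library and compared in the same kind of fit, with positive values for genes higher with Lhx6. Of 10315 genes 5.59% were higher and 5.32% lower with Lhx6. Members without Lhx6 had a median of 6048.5, 5387, 6150 and 6007.5 UMIs and those with it 7207, 10217, 6680 and 6563.5 UMIs, so that shallow cells are more often among the former.

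Slc18a3, a gene of cholinergic neurons, stood higher in the members without Lhx6. Chat and some others of the list failed the filter on low counts in the class comparisons and pass it here with the level they have without Lhx6, so that their levels are given with no test. Chat stood at 22.6, 74.6, 14.52 and 17.6 CPM without Lhx6 and at 0, 1.75, 0 and 1.79 CPM with it. Slc18a3 stood at 70.6, 21.3, 43.6 and 46.8 against 0.494, 3.5, 4.65 and 3.58 CPM. It also passes the filter here with its level without Lhx6 and is given with no test. For Chat and Slc18a3 the groups did not overlap. Prima1, which anchors acetylcholinesterase in the membrane, stood at 14.1, 21.3, 25.4 and 21.5 against 0.494, 0.75, 0.845 and 0.358 CPM. Its level with Lhx6 was very low, and it is likewise given with no test.

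Counted by cells, Chat or Slc18a3 had a UMI in 11 of 54, 3 of 14, 8 of 40 and 19 of 84 members without Lhx6 (20.4%, 21.4%, 20% and 22.6%) and in 0.419%, 1.78%, 1.9% and 2.91% of those with it. In progenitors, which were deeper, the share was 0%, 0%, 0% and 1.05%. Thinned to 3000 UMIs it was 9.43%, 5%, 8.7% and 12.7% without Lhx6 and 0.714%, 0%, 1.35% and 2.48% with it. The share in members without Lhx6 did not separate the genotypes (null 20.9% ± 0.748, WT 21.3% ± 1.85, SD over n = 2 libraries per genotype, two-sided exact permutation p = 1), and 14 cells in null replicate 2 leave a wide interval (4.66% to 50.8%, exact binomial). In members with Lhx6 both null libraries lay below both WT libraries. Among all members the share was 2.45%, 2.56%, 3.93% and 6.49%, again lower in both null libraries (two-sided exact permutation p = 0.3333, the smallest possible). After thinning it was 3.11%, 1.22%, 4.17% and 6.5%.

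Isl1 and the Zic genes were higher without Lhx6 and most MGE genes with it. Isl1, a LIM homeobox factor needed for cholinergic neurons, stood at 220.2, 458, 334 and 285 CPM without Lhx6 and at 23.4, 17.3, 28.3 and 56.2 CPM with it (log2 difference -3.22, SE 0.188, adjusted p = 1.40e-17), without overlap. All 4 Zic genes were higher without Lhx6, with Zic4 at 186, 298, 156 and 185 against 35, 22.8, 30.8 and 51.9 CPM (log2 difference -2.37, SE 0.183, adjusted p = 3.69e-14). Gbx2 was higher there as well (log2 difference -1.17, SE 0.277). Of 11 tested MGE genes 9 were higher with Lhx6, among them Nkx2-1, and Gbx2 was the 1 lower. Nkx2-1 stood at 497, 224, 472 and 409.5 CPM without Lhx6 against 544, 549, 492 and 501 CPM (log2 difference 0.31, SE 0.0997).

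Interneuron genes and genes of dividing cells were higher in members with Lhx6. Of 12 tested genes of cortical interneuron precursors 10 were higher and 0 lower. Sst, somatostatin, stood at 94.5, 171, 143 and 74.1 CPM with Lhx6 and at 11.3, 0, 10.9 and 5.85 CPM without it (log2 difference 3.69, SE 0.297, adjusted p = 1.49e-13), and Npy at 201, 159, 108 and 102 against 70.6, 42.6, 21.8 and 29.3 CPM (log2 difference 1.78, SE 0.186, adjusted p = 3.34e-10). Of 5 GABA genes Gad1 (log2 difference 1.34), Gad2 and Slc32a1 were higher, although Gad1 or Gad2 had a UMI in 134 of the 192 members without Lhx6. Of 12 tested progenitor genes 7 were higher and 0 lower, among them Top2a (1.73, SE 0.106) and Mki67 (1.72, SE 0.147), although the share of cells with Mki67 or Top2a depended on depth. It was 57.7%, 59.9%, 42.7% and 44.7% with Lhx6 and 29.6%, 57.1%, 22.5% and 34.5% without it, but 30%, 32.3%, 27% and 23.1% and 24.5%, 30%, 13% and 22.8% in thinned cells, where null replicate 2 and WT replicate 2 were nearly alike. The naming rule picked the mitotic genes Fam83d (3.33), Kif18a (2.41) and Sgo2a (2.32), with Tuba1c (2.54) and Abca1 (2.27). Cdkn1a, an inhibitor of the cell cycle, ran the other way, at 76.2, 63.9, 94.4 and 78 CPM without Lhx6 and 4.2, 4.25, 4.22 and 5.37 CPM with it (log2 difference -4.06, SE 0.283, adjusted p = 1.57e-15). Of 14 tested cadherins 5 were higher without Lhx6 and 1 with it, and of 12 maturity genes 5 and 2. Shh (1.45) and Kitl (1.57) were higher with Lhx6, and Lypd6 and Lypd6b did not pass. The erythroid genes went with Lhx6 too, 4 of 5 tested being higher.

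**Figure D4:**
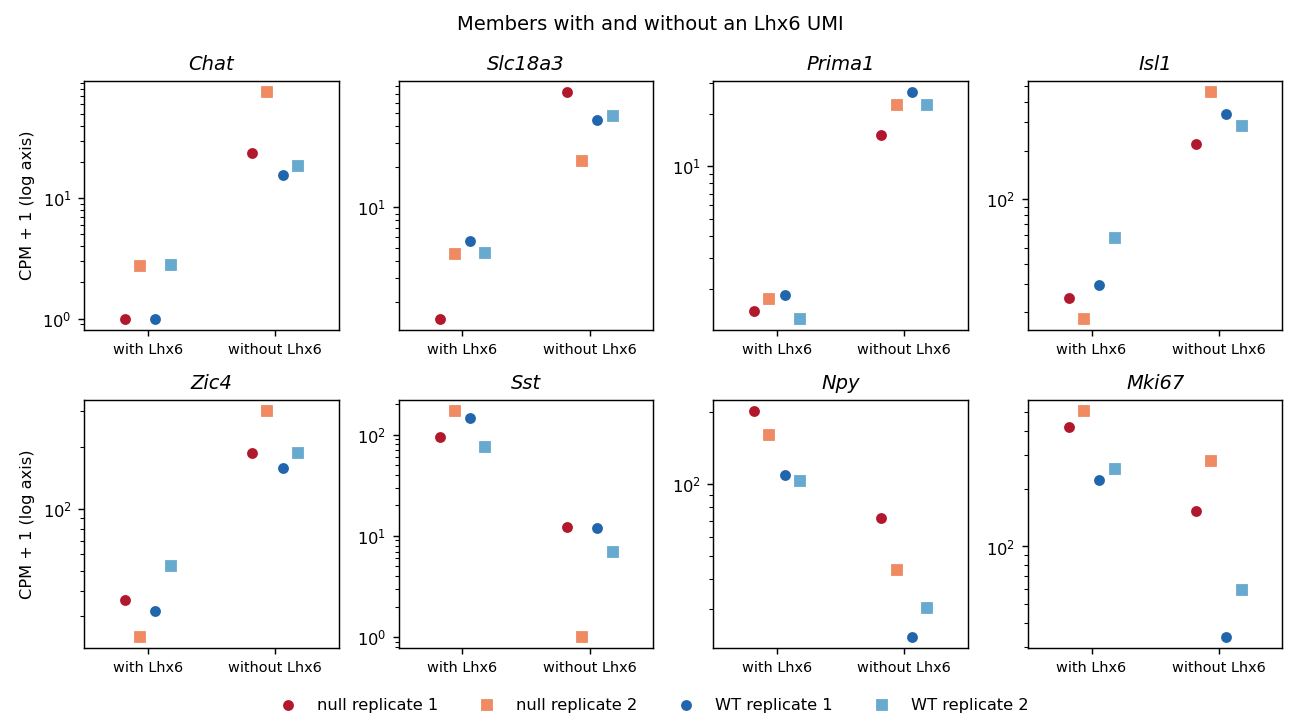
Level of 8 genes in members with and without an Lhx6 UMI, in CPM plus 1 on a log axis, with 1 point per library. Chat, Slc18a3, Prima1, Isl1 and Zic4 are higher without Lhx6, and Sst, Npy and Mki67 higher with it, in each of the 4 libraries.

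Null and WT were then compared within the members. Gbx2 and Isl1 were lower in null, and Npy, Maf, Zeb2 and Mki67 were higher. Of 11219 genes 0.526% were higher in null and 1.52% lower (edgeR's quasi-likelihood test, adjusted p under 0.05), that is 59 and 170 genes, and 2175 passed at an unadjusted p under 0.05. The number of calls rests on single libraries: it was 2877 without null replicate 1, 1104 without null replicate 2, 37 without WT replicate 1 and 19 without WT replicate 2. With library totals as the scale 327 of 455 called genes were higher in null, against 59 of 229 here, and the median of all genes moved from 0.00817 to 0.143 on the log2 scale.

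Gbx2 stood at 10.2 and 15.9 CPM in null and 45 and 37.2 in WT (log2 difference -1.79, SE 0.214, adjusted p = 0.0013). It was called without each library in turn, where 1 genotype is a single library assumed to vary like the other, in members without Xist (log2 difference -2.15), in members with Lhx6 alone (-1.96) and in members without Mki67 or Top2a (-1.85), the last pair of settings being chosen after seeing the data. It was not called in thinned cells (-1.22, adjusted p = 0.0945) or without the filter on low counts, where edgeR called 0 genes and 2059 passed unadjusted. Gbx1 stood at 42 and 41.3 CPM in null and 61.7 and 49.6 in WT and did not pass (log2 difference -0.55, adjusted p = 0.104). Isl1 stood at 39.3 and 27.4 CPM in null and 60.1 and 91.6 in WT (log2 difference -1.32, SE 0.221, adjusted p = 0.016), and it was not called without WT replicate 2 (adjusted p = 0.0759) or in members without Mki67 or Top2a (log2 difference -0.92, adjusted p = 0.0726). For Gbx2 and Isl1 both null libraries lay below both WT libraries. DESeq2 gave no adjusted p for either gene.

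The share of members without Lhx6 had the order of Isl1 over the libraries and not that of Gbx2. It was 10.2%, 3.99%, 11.2% and 18.2% of the members (null 7.08% ± 4.37, WT 14.7% ± 4.91, SD over n = 2 libraries per genotype, two-sided exact permutation p = 0.3333, the smallest possible), and 27.5%, 24.4%, 38.3% and 39.5% after thinning. Among all gated neurons the share without Lhx6 was 24.2%, 17.9%, 28.5% and 27.5%. In members with Lhx6 alone Isl1 kept its call (log2 difference -1.20, adjusted p = 0.0384). Of 6 tested cholinergic genes Isl1 and Gbx2 were lower and 4 did not pass, among them Slc18a3 at 6.13 and 3.91 CPM in null and 8.7 and 10.3 in WT (log2 difference -1.05, adjusted p = 0.104). Of the 4 Zic genes 0 passed with edgeR (3 at an unadjusted p under 0.05 and 0 with DESeq2), and Zic4 stood at 47.2 and 29.1 CPM in null and 43.9 and 72.6 in WT (log2 difference -0.74, adjusted p = 0.118), where the genotypes overlapped.

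Crabp1 was lower in null, at 17.5 and 20.5 CPM in null and 51.4 and 32.7 in WT (log2 difference -1.27, SE 0.217), but in thinned cells its difference was 0.047. Cdh13, a cadherin without a transmembrane part and the 1 called of 14 cadherins, stood at 9.76 and 8.55 CPM in null and 20.4 and 28.7 in WT (-1.57, SE 0.244). Nts, the neurotensin precursor, stood at 5.9 and 17.6 CPM in null and 24.2 and 41.4 in WT (-1.66, SE 0.334). Cdh13, Nts and the peptidase gene Ecel1 (log2 difference -1.29) lost their calls without WT replicate 2, and Crabp1 without WT replicate 1. In thinned cells Cdh13 was at -0.25 and Ecel1 at -0.61, and these and Nts (-1.64) were not called. For Crabp1, Cdh13 and Ecel1 DESeq2 gave no adjusted p.

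Of 12 tested genes of cortical interneuron precursors 3 were higher in null and 0 lower. Npy stood at 190.2 and 156 CPM in null and 99.1 and 90.7 in WT (log2 difference 0.74, SE 0.156, adjusted p = 0.0264). Zeb2, a factor needed for cortical interneuron fate, stood at 337 and 528 CPM in null and 224 and 194 in WT (log2 difference 0.91, SE 0.173, adjusted p = 0.0218), and the transcription factor Maf at 84 and 171 CPM in null and 69.2 and 36.9 in WT (log2 difference 1.13, SE 0.276, adjusted p = 0.0479). In each the null libraries lay above both WT libraries. The homeobox gene Dlx6 was higher too (log2 difference 0.59, SE 0.147). All 4 calls were lost without WT replicate 2 and in thinned cells (adjusted p = 0.383 for Zeb2 and 0.414 for Maf), and those of Npy, Zeb2 and Dlx6 also without WT replicate 1. Maf was not called either with DESeq2 (adjusted p = 0.253), in members without Xist (0.104), with doublets left out (0.0511, log2 difference 1.15) or in stricter members (0.0556, log2 difference 1.14). In members with Lhx6 alone Zeb2 kept its call (log2 difference 0.84, adjusted p = 0.0249), while Maf (1.05, adjusted p = 0.0615), Npy (0.64, 0.0572) and Dlx6 (0.54, 0.0766) were not called. Mki67 stood at 399 and 503 CPM in null and 202 and 222 in WT (log2 difference 0.95, SE 0.144, adjusted p = 0.0127) and was not called without either WT library or in thinned cells (1.06, adjusted p = 0.0511), and Top2a did not pass (log2 difference 0.29, adjusted p = 0.256). Background droplets, given above, also held more Mki67 in both null libraries, and the part of background RNA in this difference was not tested. Members with Mki67 or Top2a were more frequent in both null libraries (null 57.3% ± 3.55, WT 41.7% ± 1.7, SD over n = 2 libraries per genotype, two-sided exact permutation p = 0.3333). The same order held in the class called the rest, at 53.3%, 59.8%, 46.4% and 47.6% (null 56.5% ± 4.6, WT 47% ± 0.836, SD over n = 2 libraries per genotype, two-sided exact permutation p = 0.3333). In members without either transcript 9 genes were called, and Maf, Zeb2 and Npy were not among them (log2 differences 1.21, 0.71 and 0.82).

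Also higher in null were Sh3rf3, a scaffold protein, at 90.1 and 124 CPM in null and 35.9 and 48.7 in WT (log2 difference 1.19, SE 0.182, not called without WT replicate 1 or in thinned cells, where it was 0.68), Heg1 (1.28), Epb41l4a (1.08), and the noncoding B830012L14Rik (1.23) and Gm20342 (0.99). Heg1 lost its call without WT replicate 1, and Epb41l4a, B830012L14Rik and Gm20342 without either WT library. Neurod1 stood at 2.72 and 3.42 CPM in null and 0 and 0.302 in WT. It passed the filter on low counts with its level in null, so that it is given with no test. Xist and its antisense partner Tsix were higher in null (adjusted p = 1.56e-07 and 1.36e-04), with Xist at 0 in the WT members, and the Y-linked Eif2s3y (-1.46) and Ddx3y (-1.07) were lower. The X-linked Kdm6a was higher (1.01), though not without either WT library. In members without Xist, Eif2s3y was at -0.40, Ddx3y at 0.040 and Kdm6a at 0.69, and none of them was called. The globin genes Hba-a1, Hba-a2, Hbb-bs and Hbb-bt were lower in null, with WT replicate 2 far above the others. Hba-a1 stood at 12.7 and 10 CPM in null and 15.9 and 209.6 in WT, and without that library the differences were -0.61, -1.17, -0.49 and -0.19 with no call.

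Among the markers of the members Gbx2, Crabp1 and Nts were lower in null, whereas Shh, Kitl, Lypd6 and Nkx2-1 did not pass. Their log2 differences were -0.06 (SE 0.173) for Shh, 0.32 (SE 0.161) for Kitl, -0.25 (SE 0.171) for Lypd6 and 0.01 (SE 0.135) for Nkx2-1. With edgeR 0 of 10 tested hedgehog genes, 0 of 28 guidance genes, 0 of 12 maturity genes and 0 of 5 GABA genes were called, while 1, 8, 2 and 2 passed at an unadjusted p under 0.05 and DESeq2 called 0, 2, 0 and 0. Of the 26 genes named by rule between null and WT other than St18, 14 kept their call without WT replicate 1 and 7 without WT replicate 2.

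**Figure D5:**
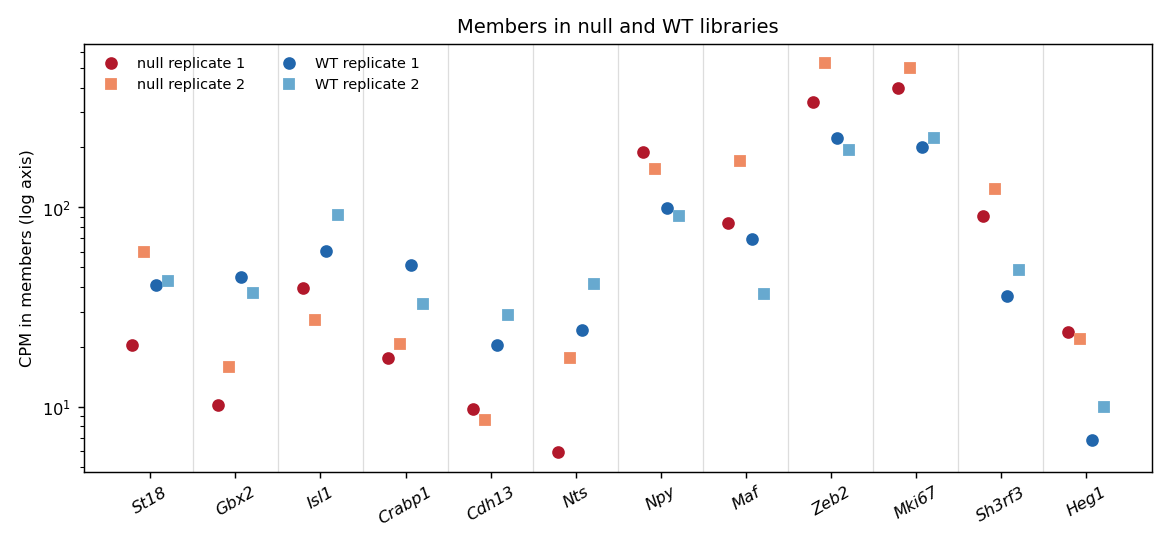
Level of 12 genes in the members of each library, in CPM on a log axis, with null in red and WT in blue. Gbx2, Isl1, Crabp1, Cdh13 and Nts lie lower in both null libraries and Npy, Maf, Zeb2, Mki67, Sh3rf3 and Heg1 higher, while the null values of St18 (20.4 and 59.9 CPM) lie on both sides of WT.

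Whether the null effect in members differed from that in the rest, the class of 5400 cells, was tested as an interaction with edgeR. Of 12556 genes, those of the gate included, 0.996% had a more positive null effect in members and 0.765% a more negative one. Npy was higher in null members but stood at 369, 279, 451 and 329 CPM in the rest (interaction 1.15 on the log2 scale, SE 0.0895, adjusted p = 1.73e-08), where the genotypes overlapped. In thinned cells the interaction was 0.84 and not called (adjusted p = 0.275). Lhx8-only and Lhx6 neurons were not part of this test. Npy stood at 386, 390, 379 and 266 CPM in the former and at 611, 617, 766 and 651 CPM in the latter. Of 13 tested genes of cortical interneuron precursors 6 had a more positive null effect in members and 0 a more negative one.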

How the data were processed

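Dissected e14.5 MGE was sequenced by droplet single-cell RNA-seq in 2 null and 2 WT libraries. The deposited matrices hold raw UMI counts for 32285 genes in all barcodes, made by the authors with Cell Ranger 5.0.1 on GRCm38 per the submitters' processing notes; no cell calls or annotation were used. Members and gene lists were chosen with earlier results of these data known. Sums of counts per library and class were tested with edgeR 4.0.16 (R 4.3.3, limma 3.58.1; TMM, filterByExpr, quasi-likelihood, Benjamini-Hochberg, 0.05), with the library as a block between classes and no block between genotypes. The statistics scripts were tested on simulated data. Genes were named by fold size at a mean of at least 20 CPM and the same direction in all libraries (null against WT: no overlap), with up to 4 called genes per list and the given markers; the interaction took 5 genes by adjusted p. Other genes given with values were chosen after their values were seen.

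Alternatives were RLE scaling, library totals, no filter, DESeq2 1.42.0, each cell thinned to 3000 UMIs, stricter members, other UMI minimums, doublets left out by their Scrublet score (scanpy 1.11.5) at an assumed 0.8% per 1000 cells, members without Xist, and each library left out. Doublets stayed in otherwise. Figures used matplotlib 3.10.9, and other steps Python 3.11.15 with pandas 2.3.3, scipy 1.17.1 and numpy 2.4.6. Some listed genes are not reported here.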

Additional observations from a re-analysis of the deposited data

Results flagged for a closer look

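The null effect differed between members and the rest, the class of 5400 cells, for 221 genes by the interaction test (edgeR, adjusted p under 0.05), and the difference itself was tested. The genes of the gate were tested here too, and Gap43 (-0.62) and Stmn2 (-0.28), which helped to choose the cells, are among the 221. The 5 named by the rule are given with their values. Npy had an interaction of 1.15 on the log2 scale, with 190.2, 156, 99.1 and 90.7 CPM in members and 369, 279, 451 and 329 CPM in the rest. Hbb-y had 5.22, with 10.6, 12.3, 825 and 129 CPM in the rest, where both WT libraries were above both null libraries and WT replicate 1 was highest. Sox11, a factor of young neurons, had 0.29, Mki67 had 0.58 and Rprm had 0.63. In cells thinned to 3000 UMIs Npy, Hbb-y and Mki67 did not pass.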

How the results depend on the processing

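In cells thinned to 3000 UMIs, where the rule was applied again and 595 members and fewer genes remained, the numbers of called genes fell from 2269 to 787 against the rest, from 1309 to 284 against Lhx8-only neurons, from 1246 to 112 against Zic1-only neurons, from 2702 to 1003 against Lhx6 neurons, from 1126 to 81 for the Lhx6 split, from 229 to 41 for null against WT and from 221 to 19 for the interaction. Members with at least 3 Lhx8 and 2 Zic1 UMIs gave 2088 calls against Lhx8-only neurons. DESeq2 gave 575 calls for the Lhx6 split and 37 for the interaction. For null against WT library totals gave 455 calls, no filter on low counts gave 0, members with Lhx6 gave 143 and members without Mki67 or Top2a gave 9, the last pair chosen after seeing the data. Leaving out 1 library gave 1621 to 1901 calls against the rest, 647 to 1035 against Lhx8-only, 752 to 1052 against Zic1-only and 1937 to 2464 against Lhx6 neurons, 606 to 1075 for the Lhx6 split, 19 to 2877 for null against WT and 93 to 263 for the interaction. The cause was not tested beyond the smaller number of cells, UMIs or libraries in each. The share of higher genes among the calls against Zic1-only neurons was 50.4%, and 35.1% with DESeq2. Crabp1 (0.047 in thinned cells) and Ddx3y (0.040 in members without Xist) changed sign between null and WT. The share of members differed by -0.662 percentage points between null and WT, by 0.381 with at least 3 Lhx8 and 2 Zic1 UMIs, and by -2.60 to 1.28 with 1 library left out. No paired analysis was possible because the labels number no replicates across genotypes, and the numbers here only name the libraries.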
